A study of Drosophila melanogaster with 6 samples.

Results

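The respiratory chain and ATP synthase of fly head mitochondria are described here as a group of transcripts across 3 genotypes and 2 times of day. Genes were chosen by name, not by their values: the current symbol or a synonym had to start with ND-, COX, UQCR, ATPsyn or Sdh. The RefSeq table held 107 such genes. Of these, 71 of the 8516 genes on the array table had a probe set listed for that gene alone, 56 of them by symbol and 15 by synonym. Another 4 (ATPsynG, COX6B, ND-AGGG and CG40472) shared a probe set with another gene, and 32 had none among the named probe sets and were not analysed here. Those not analysed included SdhA, UQCR-C1, UQCR-C2, 7 subunits of complex I and the mitochondrially encoded COX1, COX2 and COX3.

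The 71 genes comprised 57 subunits, 7 assembly factors, 5 paralogs of subunits and 2 genes that do not belong to the respiratory chain. The subunits were 27 of complex I, 3 of complex II, 6 of complex III, 9 of complex IV and 12 of ATP synthase. The 2 outsiders were Sodh1 and Sodh2, sorbitol dehydrogenases whose older synonyms begin with Sdh. They are counted among the 71 genes and among the 63 of them tested below, but not among the subunits.

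Complex I and complex II pass electrons from NADH and succinate to ubiquinone, complex III passes them on to cytochrome c, and complex IV reduces oxygen with them. Complexes I, III and IV pump protons across the inner mitochondrial membrane, and ATP synthase lets the protons flow back to make ATP. Most subunits are encoded in the nucleus and a smaller number in the mitochondrial genome. Neurons, photoreceptors and muscle depend strongly on this pathway.

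Each of the 6 samples was total RNA of 30 heads, hybridised to 1 Affymetrix Drosophila 2.0 array. Flies carried cbt over-expression (cbtOE) or cbt RNAi (cbtRNAi), or were control flies noted as cyo. After 3 to 4 days under a light-dark cycle they were collected at ZT15 or at ZT3, hours after lights-on, which gave 1 array for each genotype and time. Neither the driver of the transgenes nor the sex or age of the flies is given in the labels used here. Nothing states whether the 2 samples of a genotype came from separate crosses. With 1 array per genotype and time, no condition was replicated. The p-values therefore rest on how far these arrays depart from additive effects of genotype and time. In that departure, noise and an interaction of genotype and time cannot be told apart.

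The transcript of cbt, which encodes the transcription factor Cabut, ran against the labels. It had log2 signals of 9.90 and 8.98 at ZT15 and ZT3 in the over-expression-labelled flies, 11.05 and 10.99 in the RNAi-labelled flies, and 10.72 and 10.21 in controls. The over-expression-labelled arrays were lower than control by 1.03 on the log2 scale (limma adjusted p = 0.0331), and the RNAi-labelled difference from control was 0.55 (adjusted p = 0.104). Genotypes are for this reason called over-expression-labelled and RNAi-labelled. Markers of neurons and photoreceptors were present on all arrays, with list means of 8.99 to 9.73 and 10.23 to 11.08 log2. The over-expression-labelled ZT3 array stood apart in digestive tract markers: the 8 on the table had a mean log2 signal of 8.49 there and of 5.50 to 6.12 on the other arrays.

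All values below are the deposited log2 probe set signals or differences between them, so that 1 unit is a doubling. Tests used limma with genotype and time as additive terms, adjusted over the 5489 genes whose mean signal exceeded 6.79. Of the 71 genes 63 passed this filter, among them 54 of the 57 subunits. The 8 below it were Cox11, ND-B12, sun, UQCR-11 and the paralogs ND-20L, ND-51L1, UQCR-11L and ATPsynepsilonL.

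Subunit transcripts varied little across the 6 arrays. The range from the lowest to the highest array had a median of 0.27 log2 (1.20-fold) over the 54 subunits above the filter, against 0.51 log2 (1.43-fold) over all genes tested. It was under 0.5 log2 for 51 of the 54 subunits, or 94.4%, and for 48.5% of all genes. ND-MNLL, an accessory subunit of complex I, had the narrowest range of 0.07, and ATPsynbeta, the catalytic subunit of ATP synthase, the widest of 0.64. By complex, the median range was 0.27 for complex I, 0.33 for complex II, 0.45 for complex III, 0.21 for complex IV and 0.22 for ATP synthase. The mean signals of these subunits lay between 10.04 and 13.27. They were brighter than most genes, with a median of 11.52 against 8.5 over all genes tested. The mean signal exceeded 10 for each of the 54 and for 17.6% of all genes. The part of brightness in the small spread of the subunits was not tested.

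**Figure D1:**
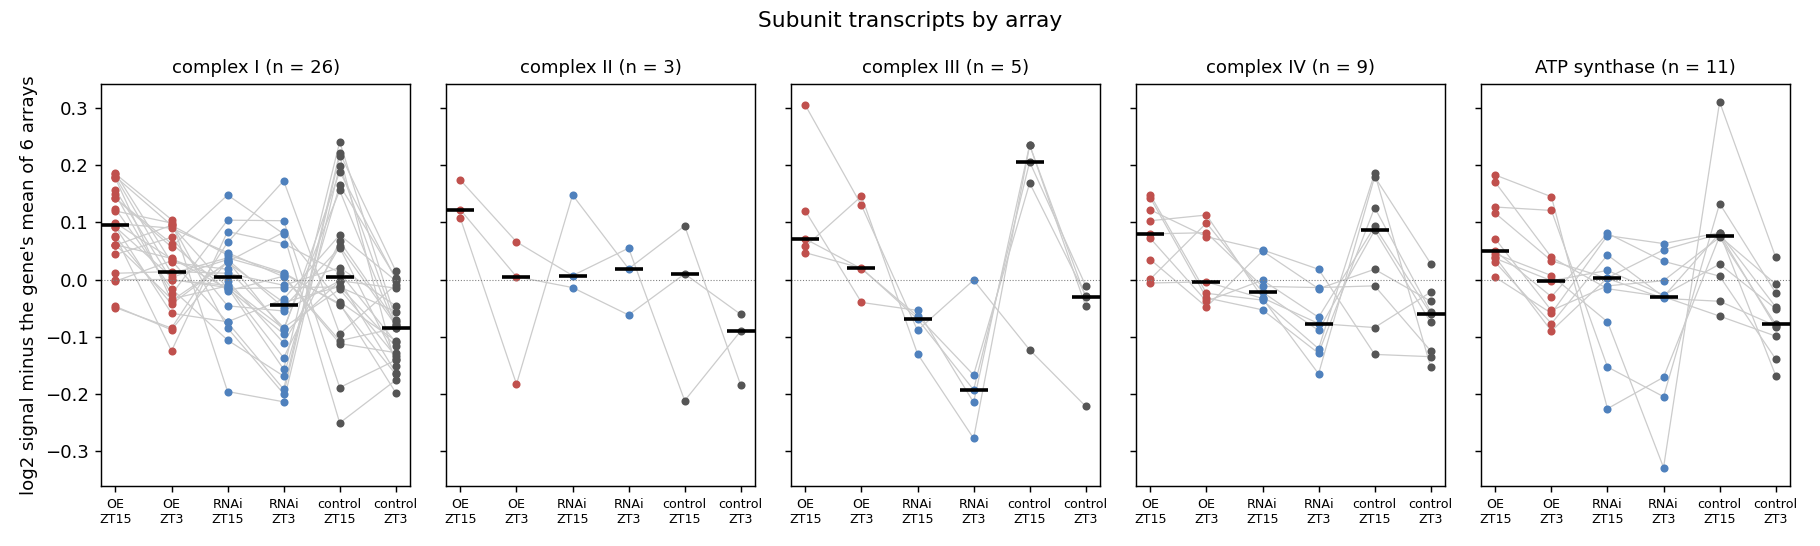
Log2 signal of each subunit above the filter minus that gene's mean over the 6 arrays (y axis), by genotype label and time (x axis; OE, over-expression-labelled), with 1 panel per complex. Points are genes, grey lines join a gene and black bars are medians: the over-expression-labelled ZT15 array had a median of 0.09 over the 54 subunits, and the control ZT3 array one of -0.08.

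Relative to each gene's mean over the arrays, the subunits lay highest on the over-expression-labelled ZT15 array and on the control ZT15 array, with medians of 0.09 and 0.06. They lay lowest on the RNAi-labelled ZT3 and control ZT3 arrays, with medians of -0.04 and -0.08. The over-expression-labelled ZT15 array was the highest of the 6 for 21 of the 54 subunits and the lowest for 0. The control ZT15 array was also the highest for 21 and the lowest for 6, while the control ZT3 array was the lowest for 21 and the highest for 0. The RNAi-labelled ZT3 array was the lowest for 21 as well and the highest for 2. Over all genes tested, the medians of the 6 arrays lay between -0.01 and 0.01.

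In over-expression-labelled heads against control heads, 0 of the 63 genes above the filter passed the limma test in either direction, where 11.6% of all genes tested did. At an unadjusted p under 0.05, 9 were higher and 0 lower, against 15.6% and 18% of all genes tested. Sodh1, which is not a respiratory chain gene, was among the 9. The groups did not overlap, with the over-expression-labelled samples higher, for 19 of the 63 and for 26.3% of all genes. The median difference over all 71 genes was 0.03, and 46 of the 71 had a fitted difference above 0, against 51.5% of all genes on the table. Centring on ribosomal protein genes gave 42 of 71, against 49.2% of all genes, and repeated quantile normalization 39 of 71, against 43.5%. Without the control ZT3 array 36 of 71 were above 0, against 51.5% of all genes, and without the control ZT15 array 56 of 71, against 50.4%.

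RFeSP, the Rieske iron-sulfur protein of complex III, had the largest difference from control of the subunits above the filter. Its log2 signals were 11.70 at ZT15 and 11.53 at ZT3 in over-expression-labelled heads, against 11.28 and 11.18 in control heads. The 2 groups did not overlap, and the difference of 0.39 ± 0.10 (SE) had an adjusted p of 0.0551. ND-75, an iron-sulfur subunit of complex I, had 10.48 and 10.39 in over-expression-labelled heads against 10.08 and 10.16 in control heads (difference 0.31 ± 0.10, adjusted p = 0.085). SdhB, the iron-sulfur subunit of complex II, had 11.03 and 10.92 against 10.64 and 10.76 in control heads (0.27 ± 0.10, adjusted p = 0.12). Each of these 3 was higher in the over-expression-labelled sample at both times, and none passed the adjusted threshold.

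Among subunits of complex IV, levy, the fly COX6A, differed most. It had 12.32 and 12.28 in over-expression-labelled heads against 12.07 at both times in control heads, a difference of 0.23 ± 0.07 (adjusted p = 0.076). In ATP synthase ATPsynD differed most, by 0.19 ± 0.08 (adjusted p = 0.149). ND-42, ND-B22 and ND-B14.5A of complex I had differences of 0.21 to 0.22 with adjusted p from 0.117 to 0.146.

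At ZT15, 36 of the 63 genes above the filter were higher in the over-expression-labelled sample, with a median of 0.02, against 49.9% of all genes tested. At ZT3, 51 of 63 were higher, with a median of 0.09, against 46.9% of all genes tested. The difference between the times was not tested, since each genotype had 1 array per time. Without the control ZT15 array the median over the 71 genes was 0.088, against 0.005 without the control ZT3 array.

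In RNAi-labelled heads against control heads, 0 of the 54 subunits passed, while 17% of all genes tested did. Of the 63 genes above the filter, the limma test called 1 higher, Sodh2, and 1 lower, COX7AL2, neither of them a subunit, against 6.25% and 10.8% of all genes. At an unadjusted p under 0.05, 3 subunits were higher and 9 lower, against 17% and 20.1% of all genes. The median over all 71 genes was -0.005, with 34 of 71 above 0, against 51% of all genes on the table. The count moved with the scaling, as did the share of all genes. Centring on ribosomal protein genes put 48 of 71 above 0, against 62.9% of all genes. Quantile normalization put 40 of 71 above 0, against 53.9%.

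Of the 5 complex III subunits above the filter, all but RFeSP lay below control. ox, a small subunit of the complex, had 11.85 and 11.71 in RNAi-labelled heads against 12.22 and 11.95 in control heads (difference -0.31 ± 0.10, adjusted p = 0.0906). UQCR-14 had 12.62 and 12.46 against 12.91 and 12.63 in control heads (-0.23 ± 0.07, adjusted p = 0.0656). UQCR-6.4 differed by the same -0.23 (adjusted p = 0.0766), and UQCR-Q had 10.45 and 10.35 against 10.68 and 10.49 in control heads. For these 4 subunits the RNAi-labelled and control samples did not overlap, and over all genes tested 31% were lower without overlap. This holds for complex III and not for the subunits as a whole. Elsewhere ATPsynCF6 and ND-ACP, among others, were lower without overlap, and ND-39 and ND-75, among others, higher. None of the 4 passed the adjusted threshold.

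ATPsynbeta had the largest difference of the subunits above the filter. It had 10.87 and 10.62 in RNAi-labelled heads against 11.26 and 10.99 in control heads, a difference of -0.38 ± 0.10 with an adjusted p of 0.0543. A fit of the RNAi-labelled and control arrays alone put it at 0.0395. The second probe set of ATPsynbeta gave -0.45 ± 0.30 (adjusted p = 0.356 over 9286 probe sets). There the RNAi-labelled ZT3 signal of 9.75 lay above the control ZT3 signal of 9.54. ND-MLRQ, counted here with complex I by its name although its mammalian counterpart has been found with complex IV, differed by -0.25 ± 0.07 (adjusted p = 0.0639). ND-75 went the other way, with 10.48 and 10.41 in RNAi-labelled heads and 10.08 and 10.16 in control heads (0.33 ± 0.10, adjusted p = 0.0674). COX7B of complex IV differed by -0.20 ± 0.07 (adjusted p = 0.0824), and SdhB of complex II by 0.18. Both comparisons share the same 2 control arrays.

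**Figure D2:**
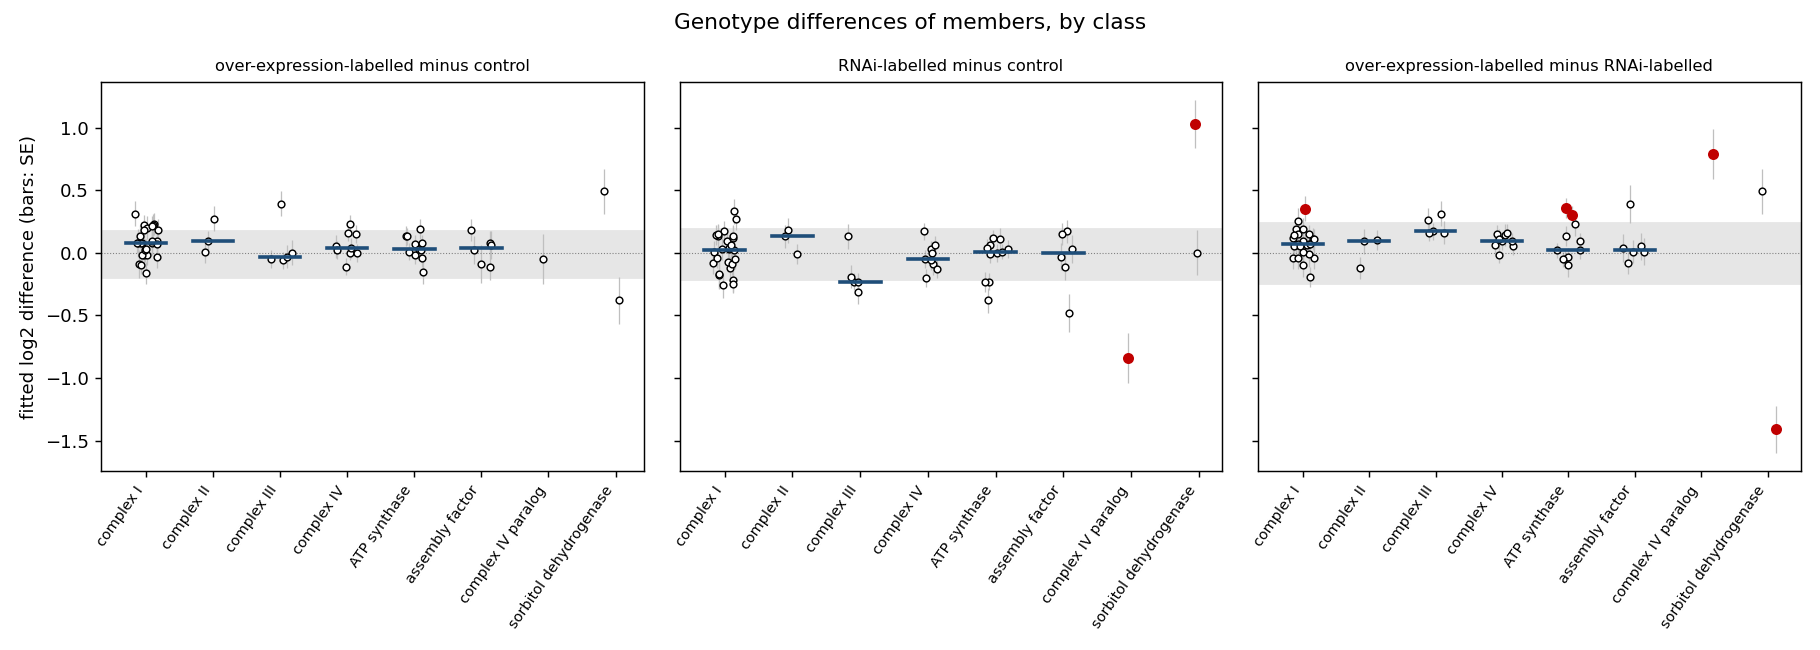
Fitted log2 differences (y axis; grey bars, SE) of the 63 genes above the filter, by class (x axis), in 3 panels, 1 per genotype comparison; blue bars are class medians, filled red points passed the limma threshold and the grey band spans the middle 50% of all genes tested. Called points are absent from the left panel, and the right panel holds 5. In that comparison 52 of the 71 genes were above 0 as deposited, against 48.7% of all genes. After centring on ribosomal protein genes 29 were, against 38% of all genes.

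Between over-expression-labelled and RNAi-labelled heads the limma test called 36.1% of all genes tested. Of the 63 genes above the filter it called 4 higher, ATPsyndelta, ATPsynCF6, ND-ACP and COX7AL2, and 1 lower, Sodh2. Both shares lay below those of all genes, 18.5% higher and 17.6% lower. The subunits called were 3 of 54. Without the over-expression-labelled ZT3 array, which carried the digestive tract markers, or without the RNAi-labelled ZT3 array, 0 of the 63 were called higher by limma, with 4 and 5 at an unadjusted p under 0.05. All genes lost calls in the same fits, with 11.1% and 9.66% called higher.

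ATPsyndelta, a subunit of the central stalk of ATP synthase, rose in over-expression-labelled heads relative to RNAi-labelled heads. It had 12.01 and 11.97 at ZT15 and ZT3 in over-expression-labelled heads, 11.60 and 11.65 in RNAi-labelled heads, and 11.90 and 11.81 in control heads. The over-expression-labelled pair was the highest and the RNAi-labelled pair the lowest, with control between them and no overlap. The difference was 0.36 ± 0.08, or 1.29-fold (adjusted p = 0.0184). Leaving out any 1 of the 4 arrays compared gave 0.31 to 0.42 with adjusted p from 0.0543 to 0.091. The gene overlaps CG2962 in the annotation, where 39 of the 71 genes overlap another gene.

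ATPsynCF6, coupling factor 6 of ATP synthase, had the same order of genotype means, with control overlapping the over-expression-labelled samples. It had 12.53 and 12.52 in over-expression-labelled heads and 12.25 and 12.20 in RNAi-labelled heads, with 12.54 and 12.38 in control heads. The difference between the labelled genotypes was 0.30 ± 0.07, or 1.23-fold (adjusted p = 0.0239). It was 0.20 under either rescaling, with adjusted p of 0.0593 on ribosomal protein genes and 0.0882 after quantile normalization. Without 1 of the arrays compared the adjusted p was 0.0512 to 0.175.

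ND-ACP, the mitochondrial acyl carrier protein that is also a subunit of complex I, had 11.19 and 11.11 in over-expression-labelled heads, 10.81 and 10.79 in RNAi-labelled heads and 11.21 and 10.93 in control heads. Its difference between the labelled genotypes was 0.35 ± 0.10 (adjusted p = 0.0419). Centring on ribosomal protein genes gave 0.25 (adjusted p = 0.0892), a fit of the arrays compared alone gave an adjusted p of 0.0594, and leaving out 1 array gave adjusted p from 0.0588 to 0.204. Of its 2 further probe sets, 1 differed by 0.47 (adjusted p = 0.0177 over 9286 probe sets) and the other by 0.14 (adjusted p = 0.266).

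All 5 complex III subunits above the filter were higher in the over-expression-labelled sample than in the RNAi-labelled sample at both times, without overlap, by 0.16 to 0.31, and 0 passed the limma test. At an unadjusted p under 0.05, 3 of the 5 were higher, as were 23.7% of all genes tested. Groups did not overlap, higher in the over-expression-labelled heads, for 37 of the 63 genes above the filter and for 33.9% of all genes tested. The median difference over all 71 genes was 0.07, with 52 of 71 above 0, against 48.7% of all genes on the table. This was 29 of 71, against 38%, on ribosomal protein genes and 38 of 71, against 40.9%, after quantile normalization. After centring on ribosomal protein genes the median was -0.029, where the median of all genes tested was -0.12, and after quantile normalization 0.009, where it was -0.06. The direction therefore rests on the scaling, while the members lay above the all-gene median under each.

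At ZT15 against ZT3, 0 of the 63 genes above the filter passed the limma test in either direction, where 1.51% of all genes tested did. At an unadjusted p under 0.05, 8 of the 63 were higher and 1 lower, against 6.29% and 10.1% of all genes. The only subunits among the 8 were SdhD, UQCR-14, COX5B and COX7C. The rest were assembly factors and the paralog COX7AL2. The gene that was lower was Sodh1, which is not a respiratory chain gene. The differences were small but leaned to 1 side. Of all 71 genes, 63 had a fitted difference above 0, against 45.4% of all genes on the table, with a median of 0.09. Under quantile normalization this was 65 of 71, against 53% of all genes, and under ribosomal protein centring 66 of 71, against 50.8%. Without any 1 array it was 61 to 64. The genes were read on the same 6 arrays and are not independent observations.

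Within genotypes, 53 of the 63 genes above the filter were higher at ZT15 in over-expression-labelled heads, 51 in RNAi-labelled heads and 54 in control heads. The corresponding medians were 0.08, 0.06 and 0.14, and the shares of all genes tested were 51%, 43.6% and 46.7%. In all 3 genotypes, 38 of the 63 were higher at ZT15, where 17.7% of all genes were. The 3 ZT15 arrays lay above the 3 ZT3 arrays without overlap for 11 of the 63, and for 3.37% of all genes tested. Of the 63, 0 were 1.5-fold or more higher in all 3 pairs, against 0.528% of all genes.

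**Figure D3:**
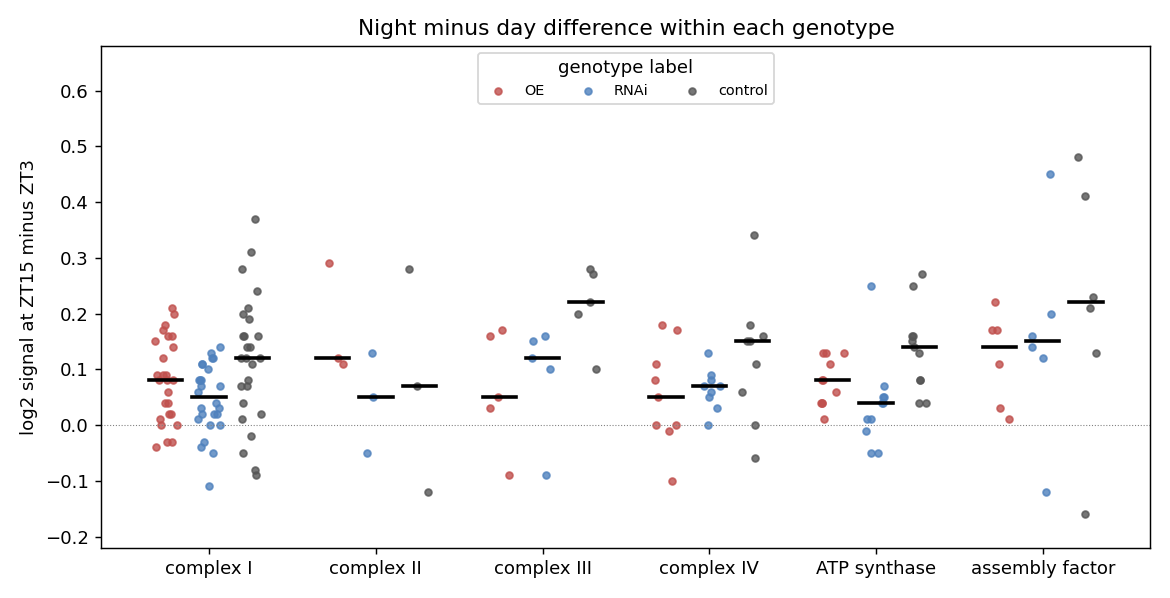
Log2 signal at ZT15 minus ZT3 (y axis) of each gene above the filter in 5 complexes and the assembly factors (x axis), with 1 column per genotype label (OE, over-expression-labelled); points are genes and black bars medians. Most points lie above 0 in each genotype, and 0 genes passed the limma test with time.

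By complex, the median fitted difference with time was 0.11 for complex I, 0.08 for complex II, 0.12 for complex III, 0.07 for complex IV and 0.08 for ATP synthase. All 11 ATP synthase subunits and all 5 complex III subunits above the filter were fitted above 0. UQCR-14 of complex III had 12.80, 12.62 and 12.91 at ZT15 in over-expression-labelled, RNAi-labelled and control heads, against 12.64, 12.46 and 12.63 at ZT3 in the same order. Its difference was 0.20 ± 0.05 (adjusted p = 0.165). SdhD, a membrane anchor of complex II, had 11.35, 11.39 and 11.34 at ZT15 against 11.06, 11.26 and 11.06 at ZT3. The times did not overlap and the difference was 0.23 ± 0.07 (adjusted p = 0.217).

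All 6 assembly factors above the filter were fitted above 0 with time, and 0 passed the limma test. Cox17, a copper chaperone of complex IV, Sdhaf3, a factor for complex II, and l(3)87Df, the fly COX20, were higher at ZT15 in all 3 genotypes without overlap, by 0.19, 0.22 and 0.28 (adjusted p = 0.286, 0.296 and 0.225). Sirup, the fly SDHAF4, had the largest genotype difference among the factors. It had 11.39 and 11.23 in over-expression-labelled heads, 11.14 and 10.70 in RNAi-labelled heads and 11.32 and 11.48 in control heads. The RNAi-labelled difference from control was -0.48 ± 0.15 (adjusted p = 0.0782). It was -0.70 without the RNAi-labelled ZT15 array, a fit that keeps only the lower RNAi-labelled signal, the 10.70 at ZT3.

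COX7AL2, a paralog of the complex IV subunit COX7A, varied more than any subunit above the filter, with a range of 1.54 log2. It had 11.38 and 11.16 at ZT15 and ZT3 in over-expression-labelled heads, 10.66 and 10.31 in RNAi-labelled heads and 11.85 and 10.79 in control heads. RNAi-labelled heads were below both other groups without overlap, while the over-expression-labelled values lay between the 2 control values. The gene fell by 0.84 on the log2 scale in RNAi-labelled heads relative to control heads (1.79-fold, SE 0.20, adjusted p = 0.0442). Without 1 of the 4 arrays compared the difference was -0.45 to -1.22 and the adjusted p 0.0569 to 0.202, and with no filter on signal the adjusted p was 0.0656. It was higher in over-expression-labelled than in RNAi-labelled heads by 0.79 (adjusted p = 0.0311). COX7A itself differed by 0.00 between RNAi-labelled and control heads. The COX7AL2 probe set carries a suffix that Affymetrix gives to sets shared by several transcripts.

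Sodh2, one of the sorbitol dehydrogenases, had 7.59 and 7.45 in over-expression-labelled heads, 8.97 and 8.88 in RNAi-labelled heads and 7.60 and 8.19 in control heads. It rose 2.04-fold in RNAi-labelled heads relative to control heads (log2 difference 1.03 ± 0.19, adjusted p = 0.0239). Without 1 of the 4 arrays compared this was 0.68 to 1.38, with adjusted p from 0.0515 to 0.102. Between over-expression-labelled and RNAi-labelled heads the difference was -1.41 (adjusted p = 0.00476). This call held under each alternative fit, with -1.21 (adjusted p = 0.00921) when the ZT3 array of the over-expression-labelled flies was left out. The region also holds an annotated antisense gene.

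**Figure D4:**
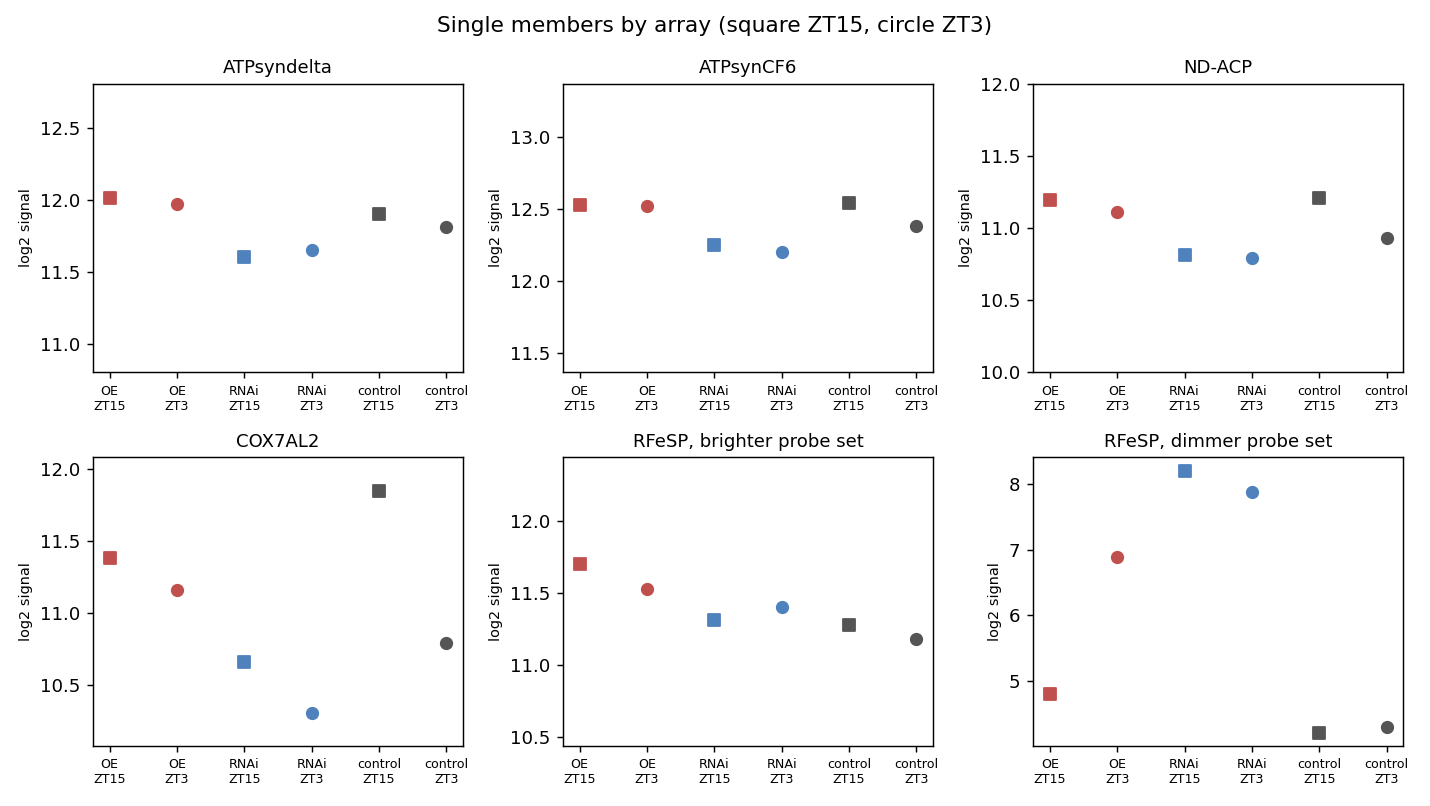
Log2 signal (y axis, a span of at least 2 units per panel) on each array (x axis; OE, over-expression-labelled) for 4 genes called between over-expression-labelled and RNAi-labelled heads and for both RFeSP probe sets; squares are ZT15 and circles ZT3. The dimmer RFeSP probe set reads 8.20 and 7.87 in RNAi-labelled heads against 4.22 and 4.31 in control heads, while the brighter one spans 11.18 to 11.70.

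Most genes had 1 probe set, and 6 had several. The dimmer RFeSP probe set did not follow the one that stood for the gene. It had 4.80 and 6.89 at ZT15 and ZT3 in over-expression-labelled heads, 8.20 and 7.87 in RNAi-labelled heads and 4.22 and 4.31 in control heads. Both control signals lay below the filter of 6.79, so only a bound can be given. With control taken at the filter level, RNAi-labelled heads were at least 2.37-fold higher (adjusted p = 0.025 over 9286 probe sets, from the signals as deposited), where the brighter set gave a log2 difference of 0.13. RFeSP overlaps CG14352 in the annotation, and which transcript each set reads was not tested. For ATPsynbeta, the second probe set gave -0.23 between over-expression-labelled and RNAi-labelled heads, against 0.23 from the set used above, and neither passed. The dimmer COX7B probe set passed in that comparison although the one that stood for the gene did not. It had 12.42 and 12.44 in over-expression-labelled heads, 12.12 and 12.04 in RNAi-labelled heads and 12.42 and 12.32 in control heads. Its difference between the labelled genotypes was 0.35 (adjusted p = 0.0277 over 9286 probe sets), against 0.09 (adjusted p = 0.404) from the set used above. The 3 of 54 subunits called do not include it.

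Among paralogs below the filter, ATPsynepsilonL had 5.25 and 5.62 in over-expression-labelled heads and 4.70 and 4.69 in RNAi-labelled heads, a difference of 0.74 that passed when all 8516 genes were tested (adjusted p = 0.0308). UQCR-11L had 4.92 and 5.29 in RNAi-labelled heads against 5.95 and 5.99 in control heads (difference -0.87, adjusted p = 0.0665). The other 6 genes below the filter passed in no comparison of that fit.

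Lists of other mitochondrial genes held 42 that were tested. Of these, the limma test called 3 between over-expression-labelled and control heads (7.14%), 4 between RNAi-labelled and control heads (9.52%) and 7 between over-expression-labelled and RNAi-labelled heads (16.7%), each share below that of all genes given above. Of 9 citric acid cycle and pyruvate dehydrogenase genes, 1 was higher in over-expression-labelled than in control heads, against 6.3% of all genes. It was Idh3a of isocitrate dehydrogenase (0.39, adjusted p = 0.0465). Of the same 9, 1 was lower in over-expression-labelled than in RNAi-labelled heads, against 17.6% of all genes. It was Scsalpha1 of succinyl-CoA synthetase (-0.50, adjusted p = 0.0139).

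Of 7 carriers of the mitochondrial membranes, 2 were lower in over-expression-labelled than in control heads, against 5.27% of all genes: the uncoupling protein Bmcp (-1.13, adjusted p = 0.0287) and the calcium uniporter MCU (-0.61, adjusted p = 0.0312). Mpc1, of the mitochondrial pyruvate carrier, was the 1 carrier lower in RNAi-labelled than in control heads (-0.51, adjusted p = 0.026), against 10.8% of all genes. Between over-expression-labelled and RNAi-labelled heads 4 of the 7 were called, against 36.1% of all genes. Bmcp differed by -1.54 (adjusted p = 0.00479), MCU by -0.59 (adjusted p = 0.0139) and porin, the channel of the outer membrane, by -0.39 (adjusted p = 0.0179). Mpc1 went the other way, by 0.58 (adjusted p = 0.00876). The median over the 7 carriers in that comparison was -0.08, against -0.02 over all genes tested.

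Of 10 import genes, 2 were lower in RNAi-labelled than in control heads, against 10.8% of all genes. These were Tim9a (-0.42, adjusted p = 0.0487) and Tom7 (-0.35, adjusted p = 0.0472). Hsp60A of the same list went the other way without passing (0.47, adjusted p = 0.0545). Of 10 biogenesis genes, 1 was higher in RNAi-labelled than in control heads, against 6.25% of all genes. It was Dref, a transcription factor (0.36, adjusted p = 0.046). In over-expression-labelled heads 2 of the 10 biogenesis genes were lower than in RNAi-labelled heads, against 17.6% of all genes. They were Dref (-0.35, adjusted p = 0.0291) and the transcription factor ewg (-0.60, adjusted p = 0.0109). With time, 0 of the 42 were called by limma, and 1 had an unadjusted p under 0.05.

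Markers of some cell types moved with the same labels. Of 9 neuronal markers tested, 4 were lower in over-expression-labelled than in control heads and 0 higher, against 5.27% and 6.3% of all genes. Their median was -0.51, and the list mean was 9.32 and 8.99 log2 against 9.70 and 9.64. Relative to RNAi-labelled heads, 6 of the 9 were lower, against 17.6% of all genes. Of 6 photoreceptor markers, 3 were higher in RNAi-labelled than in control heads, against 6.25% of all genes. In over-expression-labelled heads 5 of the 6 were lower than in RNAi-labelled heads, against 17.6% of all genes. With time, 1 of the 6 was called higher at ZT15, against 0.747% of all genes. Of 7 hemocyte markers, 3 were lower in RNAi-labelled than in control heads, against 10.8% of all genes. In over-expression-labelled heads 6 of the 7 were higher than in RNAi-labelled heads, against 18.5%. Of 6 glial markers, 1 was higher and 2 were lower in over-expression-labelled than in control heads, against 6.3% and 5.27% of all genes. In RNAi-labelled heads 2 of the 6 were lower than control, against 10.8%. Another count of 2 was higher in over-expression-labelled than in RNAi-labelled heads, against 18.5%. Of 8 fat body markers, 1 was higher and 1 lower in over-expression-labelled heads relative to either other genotype. The shares of all genes were 6.3% and 5.27% relative to control and 18.5% and 17.6% relative to RNAi-labelled heads. The mean of the 12 muscle markers on the table was 8.90 and 9.34 in over-expression-labelled heads. It was 8.50 and 8.53 in RNAi-labelled heads and 8.84 and 8.45 in control heads. Of 10 muscle markers tested, 1 was called between over-expression-labelled and control heads, against 11.6% of all genes. It was Act88F, higher (adjusted p = 0.034) with both control signals below the filter. The median of the 10 was 0.11, and the other 9 lay between -0.34 and 0.35. Relative to RNAi-labelled heads, 2 of the 10 were higher and 0 lower, against 18.5% and 17.6% of all genes, with a median of 0.28. The part of these cell types in the subunit values was not tested. In whole heads, fewer cells of a type and less RNA per cell cannot be told apart.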

How the data were processed

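Total RNA of 6 fly head samples was read on 1 array each. The authors deposited log2 probe set signals and used Affymetrix Expression Console to make them, as the submitters' processing notes state; its version and its summarisation method are not given in the sources used here, and the log2 scale was read from the values. The 6 arrays, with medians of 7.35 to 7.42, limit the precision.

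Gene names came from the platform annotation, updated by gene ID through RefSeq (Release 6): of 10956, 9286 had 1 gene (9260 matched), 276 several and 1394 none. A gene with several was represented by its brightest probe set on average. Genes above the 40th percentile of mean signal entered a limma fit (version 3.58.1, R 4.3.3; lmFit on genotype plus time over all 6 arrays, eBayes with trend, two-sided, Benjamini-Hochberg, threshold 0.05). There were 2 residual degrees of freedom and a prior of 3.8, and the interaction of genotype and time could not be tested. The fit was tested on simulated data.

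Full values were given for genes called in any comparison and for the largest difference per complex. Members and lists were chosen with earlier results of these data known. Alternatives were other filters, scalings, probe set rules, fits and leaving out each array. No sequences were available to print, and promoters were not analysed here.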

Additional observations from a re-analysis of the deposited data

Results flagged for a closer look

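COX7AL2 differed between over-expression-labelled and control heads in opposite directions at the 2 times, by -0.47 log2 at ZT15 and by 0.37 at ZT3. Sodh1, a sorbitol dehydrogenase outside the respiratory chain, did so between RNAi-labelled and control heads, by 0.37 at ZT15 and by -0.36 at ZT3. Each of these values is 1 array minus 1 array, and the difference between the times was not tested.

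The dimmer RFeSP probe set, which did not stand for the gene in the comparisons, differed by 3.77 log2 between RNAi-labelled and control heads in the signals as deposited. Both control signals lay below the filter level, so this value is no measured fold. With control taken at the filter level, RNAi-labelled heads were at least 2.37-fold higher.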

How the results depend on the processing

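Counts of called genes were small and moved with the settings. Higher in over-expression-labelled than in control heads, the count of 0 became 1 with only the arrays of the genotypes compared, and was 0 to 1 with 1 array left out. Higher in RNAi-labelled than in control heads, the count of 1 became 2 under ribosomal protein centring and when probe sets of 1 gene were averaged, and 0 for subunits only; with 1 array left out it was 0 to 1. Lower in RNAi-labelled heads, the count of 1 became 0 under the 1.5-fold rule, ribosomal protein centring, no filter, no time term, subunits only and quantile normalization, and 3 with only the arrays compared; with 1 array left out it was 0 to 3. Of all genes tested, 9 were called lower in RNAi-labelled than in control heads without the control ZT3 array and 1 without the control ZT15 array, against 591 with all arrays. Higher in over-expression-labelled than in RNAi-labelled heads, the count of 4 became 1 under the 1.5-fold rule and 2 under ribosomal protein centring, no time term and quantile normalization; with 1 array left out it was 0 to 4, with 0 without either the over-expression-labelled or the RNAi-labelled ZT3 array. Lower, the count of 1 became 2 under both rescalings and with the mean of probe sets, and 0 for subunits only. The median over the 71 genes became -0.029 and 0.009 between the labelled genotypes, and 0.083 between RNAi-labelled and control heads under ribosomal protein centring; between over-expression-labelled and control heads it was 0.005 to 0.088 with 1 array left out. COX7AL2 between over-expression-labelled and control heads (-0.05) ranged from -0.43 to 0.33 with 1 array left out, with 0.19 when the ZT15 array of the over-expression-labelled flies was dropped and 0.33 when that of the controls was. The cause of these changes was not tested. With time, each alternative run called 0 genes. The subunits-only and all-probe-set settings were chosen after seeing the data. Arrays were matched by time of day, which is a term of the fit. Replicate numbers follow accession order and were not used as a block.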
